A study of Mus musculus with 6 samples.

Results

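The intervals described here are the regions of captured, methylated DNA that the deposited table names for genes of tumour necrosis factor (TNF) signalling. They were taken by symbol: every gene whose symbol starts with Tnfrsf, Tnfsf or Tnfaip, the genes Traf1 to Traf7, and Tradd, Tnf, Ripk1 and Fadd. The rule found 130 lines, which collapsed to 129 distinct intervals of 43 genes, among 68634 regions with a gene name and 213957 distinct regions in all. Of these intervals, 22 are also named for at least 1 further gene. The libraries came from cardiac left ventricle of male C57BL/6 mice at postnatal day 1 (P1) and day 14 (P14), 3 per age, with no genetic change or treatment, and the series calls them biological replicates. The labels give left ventricle as the tissue, while the collection protocol speaks of ventricles kept with the septum after the atria were removed. Whether a library holds DNA of 1 animal or of several pooled ones is not given in the sources used here.

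TNF ligands are trimeric proteins, most of them made as membrane proteins, that act on receptors of the TNF receptor superfamily. Some receptors carry an intracellular death domain that gathers the adaptors TRADD and FADD and the kinase RIPK1, others bind TRAF adaptors directly, and decoy receptors bind ligand without signalling. The outcome ranges from NF-kB and JNK activation to apoptosis or necroptosis, and in the heart TNF is best known as a cytokine of injury and inflammation. The method captures fragments through a methyl-CpG binding domain, so a count rises with the number of methylated CG dinucleotides in a fragment and with the efficiency of the capture. It gives no methylation level per site and no expression.

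The intervals lay mostly in gene bodies. Of 129, 108 lay inside the RefSeq span of their gene, 7 crossed its edge and 14 lay outside it, at most 2866 bp away. Their median width was 909 bp (486 to 3027), beside 884 bp for all named regions. A start site and strand were given for the genes of 116 intervals, and the median distance from the interval's centre to the nearest start of its gene was 14902 bp. Only 4 centres lay within 1000 bp of it, at Tnfsf14, Tnfsf8, Tnf and Tnfsf13. Traf3, which encodes an adaptor that restrains the non-canonical NF-kB pathway, had the most intervals, 15 along 100835 bp, and 15 genes had 1 each.

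Promoter windows, from 250 bases before to 50 after the start in RefSeq (build GRCm38.p6), were available for 36 of the 43 genes, 42 windows in all. Named regions of the table lay over 2 of the 42 (4.76%), beside 1889 of 32851 windows of all genes (5.75%). The covered pair belongs to ligand genes, Tnfsf14 (LIGHT) and Tnfsf8 (the CD30 ligand). CG, which reads the same on both strands, was counted in each window, and 94.6% of all windows hold it at least once. The windows of TNF genes held a median of 12.5 (2 to 59), against 7.0 over all windows. Of the 11 windows with 20 or more, a limit chosen after seeing the values, 0 had a named region over them, beside 1.03% of the 8701 such windows of all genes. A window without a named region is one for which the table holds no such region, and regions with few reads are absent from the table. Its methylation was not measured here. Tnfaip2 was picked for an interval in its gene body that was called higher at P14 (adjusted p = 0.0484 by edgeR). Several other fits given below lost that call. Traf3 was picked for the window with the most CG. The 2 covered windows are printed first, followed by those of Tnfaip2 and Traf3, neither of them covered. All read 5′ to 3′ on the strand of the gene, with each CG in capitals.
Tnfsf14, chr17:57194132-57194431, minus strand: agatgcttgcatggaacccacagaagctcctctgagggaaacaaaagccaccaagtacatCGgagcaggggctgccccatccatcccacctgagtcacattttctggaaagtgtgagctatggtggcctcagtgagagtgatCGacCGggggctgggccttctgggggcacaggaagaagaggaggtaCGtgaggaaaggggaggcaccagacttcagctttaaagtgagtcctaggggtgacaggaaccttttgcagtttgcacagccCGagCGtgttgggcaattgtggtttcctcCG
Tnfsf8, chr4:63861235-63861534, minus strand: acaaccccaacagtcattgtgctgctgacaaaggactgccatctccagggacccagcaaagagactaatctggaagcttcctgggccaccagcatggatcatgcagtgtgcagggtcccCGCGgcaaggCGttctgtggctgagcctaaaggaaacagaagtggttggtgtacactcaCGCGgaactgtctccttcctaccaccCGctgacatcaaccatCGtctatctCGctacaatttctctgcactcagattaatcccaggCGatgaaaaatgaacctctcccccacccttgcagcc
Tnfaip2, chr12:111442411-111442710, plus strand: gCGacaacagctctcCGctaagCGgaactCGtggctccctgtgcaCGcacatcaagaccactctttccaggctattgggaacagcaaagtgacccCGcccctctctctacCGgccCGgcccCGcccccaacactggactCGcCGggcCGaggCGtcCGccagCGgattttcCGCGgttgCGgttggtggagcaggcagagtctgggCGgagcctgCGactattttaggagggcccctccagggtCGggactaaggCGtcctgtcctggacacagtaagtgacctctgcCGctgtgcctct
Traf3, chr12:111166120-111166419, plus strand: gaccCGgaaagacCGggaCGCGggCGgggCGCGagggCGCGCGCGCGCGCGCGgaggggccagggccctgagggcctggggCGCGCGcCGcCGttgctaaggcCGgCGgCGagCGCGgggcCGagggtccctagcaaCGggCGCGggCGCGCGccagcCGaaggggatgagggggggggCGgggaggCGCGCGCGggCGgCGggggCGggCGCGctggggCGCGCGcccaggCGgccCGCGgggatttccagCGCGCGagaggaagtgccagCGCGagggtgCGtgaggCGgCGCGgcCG
The Tnfsf14 window holds 7 CG and the Tnfsf8 window 9, against 23 at Tnfaip2 and 59 at Traf3. The interval over the Tnfsf14 start (chr17:57193555-57194732) held 29, 25 and 19 reads at P1, against 104, 35 and 31 at P14. The one over the Tnfsf8 start (chr4:63860760-63861572) held 5, 14 and 15 against 50, 17 and 16. Scaled to the named regions, both levels overlapped between ages, with log2 changes of 0.03 (SE 0.30) and 0.13 (SE 0.44) and an adjusted p of 1 each in edgeR's quasi-likelihood test.

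**Figure D1:**
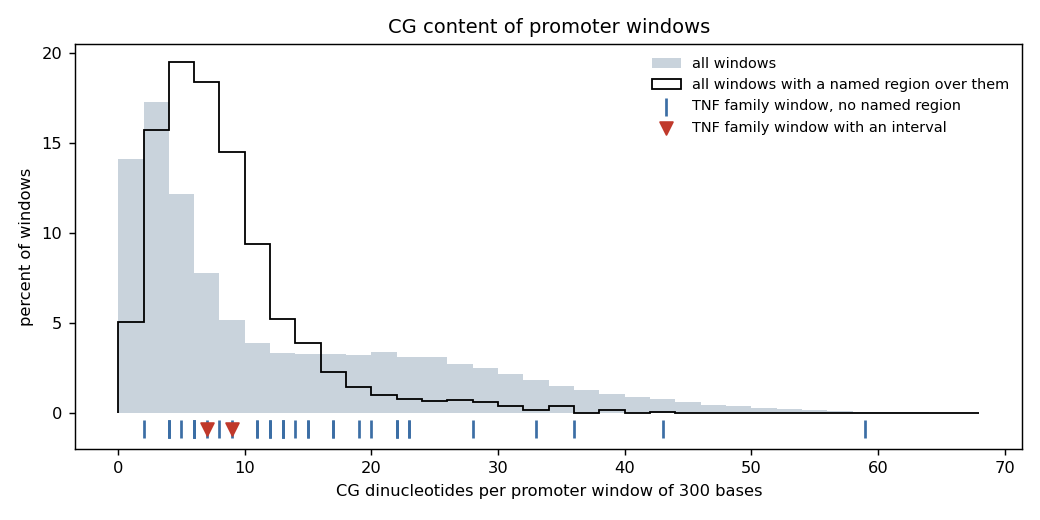
Horizontal axis: CG dinucleotides per promoter window of 300 bases. Vertical axis: percent of windows, for all 32851 windows (grey) and for the 1889 with a named region over them (black line). Marks under the axis are the 42 windows of TNF genes. The 2 covered ones, at 7 and 9, lie in the lower part of the range from 2 to 59.

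Reads in named regions took a larger share of each library at P14, 16.1% ± 6.93 (SD, n = 3) against 8.19% ± 0.595 at P1 (SD, n = 3, exact permutation p = 0.1, two-sided, the smallest that 3 against 3 allow). P14 replicate 1 stood apart at 24.0% (95% Wilson interval 23.985 to 24.021, counting error only), and the other P14 libraries averaged 12.1%. Total reads ranged from 16284216 to 21512072 per library. Values are therefore given as CPM (counts per 1000000 reads), with the reads in tested named regions as library size and TMM scaling factors. A change is thus relative to other named regions. Of all named regions, 61355 had enough reads to test, and 120 of the 129 TNF intervals were among them. The median TNF interval held 16.0 to 17.0 reads in the P1 libraries and 21.0 to 62.0 at P14. Per 1000000 reads in all named regions, tested or not, and without TMM scaling, the 129 intervals together summed to 1780, 1708 and 1767 at P1. At P14 the sums were 1855, 1840 and 1787.

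At an adjusted p under 0.05, 3 of the 120 tested intervals were higher at P14 and 0 lower. They lay at Tradd, with 2, and at Tnfaip2. The background over all named regions was 2.41% called, 0.200% higher and 2.21% lower, against 2.50% of TNF intervals. The total share was thus near the background. By direction, 2.50% were called higher against 0.200%, and 0.00% lower against 2.21%. A share of 2.21% is few intervals among 120, so 0 lower calls are not read as a difference. The higher share rests on 3 intervals. The 2 at Tradd share that gene name, and 1 of them, 2866 bp outside its span, is also named for Fbxl8 and Hsf4. An unadjusted p under 0.05 was reached by 5 intervals higher at P14 and 3 lower, of 120, where the background was 7.84% (3.25% higher, 4.59% lower). The median log2 change was -0.02, beside 0.00 over all tested named regions, with 58 intervals above 0 and 62 below. The groups did not overlap in 8 intervals higher at P14 (6.67%, background 5.26%) and in 6 lower (5.00%, background 6.71%). In a fit over all 209063 tested regions, with stretches between peaks included, 0 TNF intervals passed (background 0.00%), although 38 of 127 had an unadjusted p under 0.05 (background 23.0%). Without P14 replicate 1 that fit called 3 of them higher (background 0.122%), and with both libraries numbered 1 left out 6 (background 1.19%). The backgrounds of this fit are over all tested regions, stretches between peaks included, and not over named regions alone. Named regions as a class lay higher in it. With all libraries the median log2 change was 0.73 for TNF intervals and 0.74 for all named regions, against 0.12 over all regions. Without P14 replicate 1 these medians were 0.42, 0.47 and 0.05, and without both libraries numbered 1 they were 0.43, 0.42 and 0.03. Scaled to the reads outside named regions, 117 of 120 were above 0, 15 passed as higher (background 8.95%) and 0 as lower (background 0.222%). Directions below are thus relative to other named regions.

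**Figure D2:**
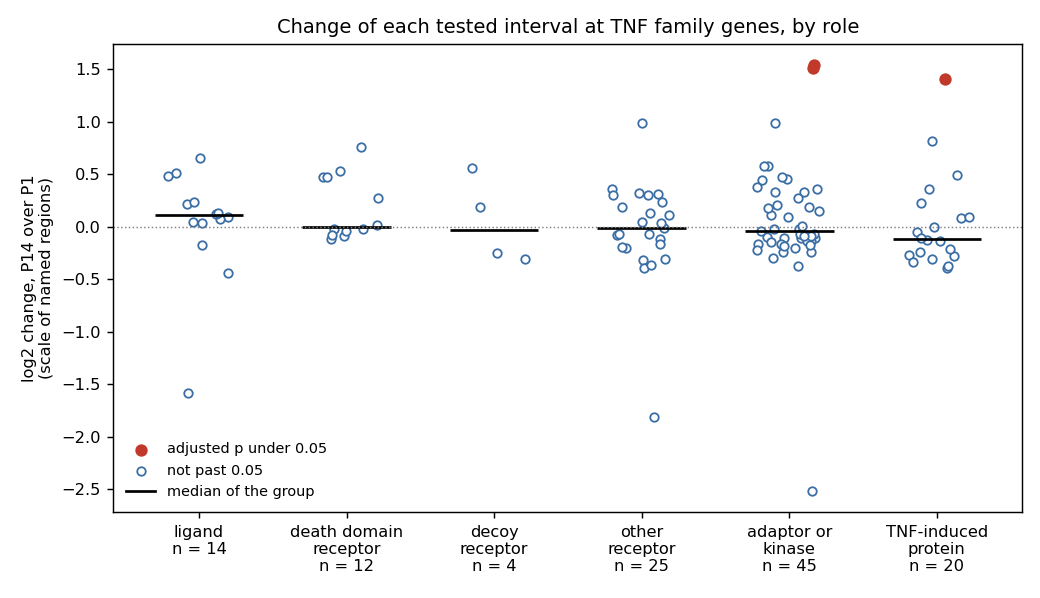
Each point is 1 tested interval, placed by the role of its gene (horizontal axis) and its log2 change from P1 to P14 (vertical axis, relative to all named regions). Lines mark group medians. The 3 red points past an adjusted p of 0.05 are the pair at Tradd, which nearly coincide, and Tnfaip2. The lowest point is Ripk1 at -2.52.

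Among adaptors and the receptor kinase, the clearest change was at Tradd, which encodes the adaptor that binds the death domain of the TNF receptor and recruits TRAF2, RIPK1 and FADD. The first of its intervals lies 2866 bp outside the gene span (chr8:105267460-105269186) and is also named for Fbxl8 and Hsf4, an F-box protein gene and a heat shock factor gene. It held 4, 13 and 21 reads at P1, against 151, 66 and 35 at P14, or 3.05, 8.76 and 14.5 CPM against 30.9, 26.0 and 19.5. Every P14 library was above every P1 library. The mean rose from 8.78 ± 5.73 to 25.5 ± 5.74 CPM (SD, n = 3), 2.90-fold higher (log2 change 1.54, SE 0.36, adjusted p = 0.0289 by edgeR).

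The other interval, over the edge of the gene span (chr8:105258237-105259835), is named for Tradd alone. It held 4, 17 and 13 reads at P1, against 125, 66 and 28 at P14, or 3.05, 11.4 and 8.99 CPM against 25.6, 26.0 and 15.6. Again the groups did not overlap, and P1 replicate 1 was the lowest library in both intervals. The mean rose from 7.83 ± 4.32 to 22.4 ± 5.9 CPM (SD, n = 3), 2.85-fold (log2 change 1.51, SE 0.37, adjusted p = 0.0317 by edgeR). The stretch of 7624 bp between the 2 intervals held 85, 62 and 66 reads at P1, against 107, 89 and 52 at P14 (log2 change -0.14, SE 0.24) in the fit over all regions, where the intervals had 2.29 (SE 0.51) and 2.25 (SE 0.50). A further interval at Hsf4 alone (chr8:105270216-105271773) held 15, 15 and 5 reads against 89, 45 and 24 and did not pass (log2 change 1.00, SE 0.38, adjusted p = 0.277). Both Tradd calls were lost without P14 replicate 1 (log2 changes 1.36 and 1.40, adjusted p = 0.232 each), without P14 replicate 2 (adjusted p = 0.0693 and 0.107) and without P1 replicate 1 (1.17 each, adjusted p = 0.0723 and 0.085). The first was also lost without P1 replicate 2 (adjusted p = 0.0915), the other without P1 replicate 3 (0.0766). Without both libraries numbered 1 the log2 changes were 0.98 and 1.05 (adjusted p = 0.178 and 0.163). Both calls were also lost with the share of reads in named regions as a covariate (log2 changes 1.02 and 1.07, SE 0.54 and 0.55, adjusted p = 1). That share was higher in every P14 library than in every P1 library, so the covariate runs with age. No named region passed in that fit or in the one without P14 replicate 1. Neither can therefore tell an unstable call from a loss of power.

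Ripk1, the gene of the kinase that turns TNF receptor signals towards survival or cell death, had 1 interval, inside the gene (chr13:34025928-34026564). It held 25, 10 and 14 reads at P1, against 0, 12 and 4 at P14, or 19.1, 6.74 and 9.68 CPM against 0, 4.73 and 2.23. All P14 libraries were below all P1 libraries, and the empty one, P14 replicate 1, had the most reads in named regions, where 3 reads would be 0.614 CPM. The means were 11.8 ± 6.44 and 2.32 ± 2.36 CPM (SD, n = 3). The log2 change of -2.52 (SE 0.75) did not pass (adjusted p = 0.0858). It lay between -3.92 (without P14 replicate 2) and -1.68 (without P14 replicate 1) with 1 library left out, and at -1.15 without both libraries numbered 1. With the share of reads in named regions as a covariate it was 1.12 (SE 1.13).

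Traf1 encodes an adaptor of the TRAF family that lacks the RING finger of the others and is itself induced by NF-kB. Of its 5 intervals, one in the gene body (chr2:34943458-34944493) held 12, 19 and 14 reads at P1, against 101, 50 and 41 at P14, or 9.16, 12.8 and 9.68 CPM against 20.7, 19.7 and 22.8. The groups did not overlap and spread little within each age, 10.6 ± 1.97 against 21.1 ± 1.6 CPM (SD, n = 3). The log2 change of 0.98 (SE 0.30) did not pass (adjusted p = 0.0966), and its values lay between 0.90 and 1.14 with any 1 library left out. A second Traf1 interval (chr2:34940970-34942832) was also higher in all P14 libraries, with a log2 change of 0.45 (SE 0.32, adjusted p = 1). The log2 changes of the other Traf1 intervals were -0.02, 0.33 and 0.38.

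Of the remaining adaptor intervals, none passed. At Traf3, 13 of 15 intervals had log2 changes below 0 and 2 above, from -0.30 to 0.36, none with an unadjusted p under 0.05. Its densest interval (chr12:111260138-111262425), near the far end of the gene, held 85, 70 and 81 reads at P1, against 243, 132 and 101 at P14, with a log2 change of -0.09 (SE 0.21, adjusted p = 1). The lowest Traf3 value, -0.30 (SE 0.25), was at chr12:111250799-111252867, with 52, 54 and 52 reads against 105, 94 and 62. At 23.7 CPM per kb over all libraries the densest one was among the 3 most densely captured TNF intervals, whose median was 13.2 CPM per kb. Traf5, which encodes an adaptor of several lymphocyte receptors, had its highest value in an interval near the far end of the gene (chr1:191997371-191998461). It held 10, 37 and 26 reads against 163, 54 and 36, overlapped between ages (log2 change 0.58, SE 0.33, adjusted p = 0.848). At Traf7, 7 of 8 intervals were tested and had log2 changes from -0.22 to 0.57. The one at chr17:24512724-24513685 held 9, 15 and 13 reads against 63, 31 and 25, and it was higher in all P14 libraries (adjusted p = 0.931). Traf2, which recruits ubiquitin ligases to the receptor, had 6 intervals between -0.38 and 0.33, and Traf4 had 2, at -0.17 and -0.04. Traf6, the adaptor that also serves interleukin and Toll-like receptors, had 1 interval at -0.25 (SE 0.21), lower in all P14 libraries. Fadd, which links death receptors to caspase-8, had 1 interval, shared with Gm10574, at 0.44 (SE 0.37). Over the group, 45 of 47 intervals were tested, 20 of them above 0 and 25 below, with a median of -0.04.

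**Figure D3:**
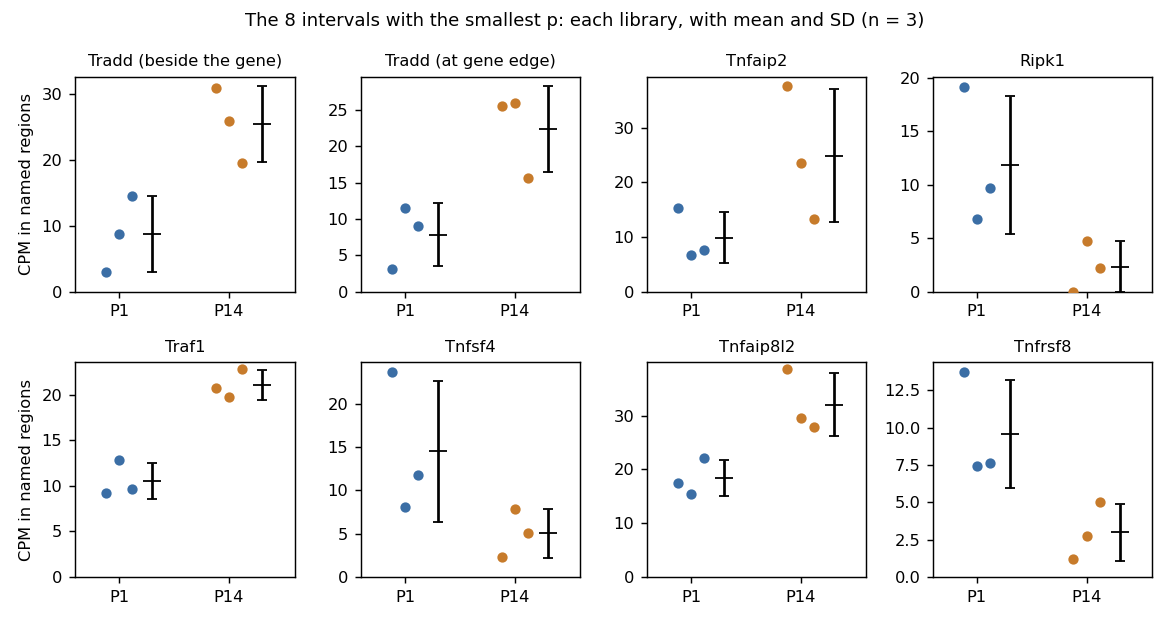
CPM in named regions (vertical axis, from 0, scale differing between panels) in each library at P1 and P14 for the 8 intervals with the smallest p. Points are libraries, replicates 1 to 3 from left to right, and bars are mean ± SD (n = 3). Only the Tnfaip2 groups overlap, where 1 P14 library at 13.4 lies below the highest P1 library at 15.3.

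The group called TNF-induced proteins here holds every gene with a Tnfaip symbol, and induction by TNF was not tested. Its 8 genes had 21 intervals, 20 of them tested. Tnfaip2, also called M-Sec, promotes thin membrane bridges between cells. Its interval nearest the start (chr12:111444845-111446519, centre 3021 bp downstream) held 20, 10 and 11 reads at P1, against 184, 60 and 24 at P14, or 15.3, 6.74 and 7.61 CPM against 37.7, 23.6 and 13.4. The groups overlapped, since P14 replicate 3 lay below P1 replicate 1. The mean rose from 9.87 ± 4.69 to 24.9 ± 12.2 CPM (SD, n = 3), 2.65-fold (log2 change 1.41, SE 0.38, adjusted p = 0.0484 by edgeR). The call was lost without P14 replicate 1 (log2 change 0.95, adjusted p = 0.6), P14 replicate 2 (0.0905), P1 replicate 2 (0.273) or P1 replicate 3 (0.247). It was also lost with RLE factors (0.0501), in DESeq2 (0.0921) and with no filter (0.0555). Further losses came with the share of reads in named regions as a covariate (log2 change 0.38) and without both libraries numbered 1 (1.40, adjusted p = 0.0637). No named region passed with that covariate or without P14 replicate 1, so neither fit can tell an unstable call from a loss of power. The other 2 intervals, further along the gene, had log2 changes of 0.49 (SE 0.30, 22, 17 and 18 reads against 109, 46 and 28) and -0.13 (SE 0.32), with adjusted p of 0.925 and 1.

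Tnfaip8l2, or TIPE2, restrains immune receptor signalling. Its interval across the gene edge (chr3:95138880-95141161), shared with Lysmd1, held 23, 23 and 32 reads at P1, against 189, 75 and 50 at P14, or 17.6, 15.5 and 22.1 CPM against 38.7, 29.5 and 27.8. All P14 libraries were above all P1 libraries, and the log2 change of 0.82 (SE 0.26) did not pass (adjusted p = 0.123). The other Tnfaip8l2 interval, 1570 bp outside the gene, was at -0.38 (SE 0.37). Tnfaip3, which encodes A20, the ubiquitin-editing inhibitor of NF-kB, had 2 intervals at -0.14 and -0.05. Tnfaip1, a substrate adaptor of a cullin ubiquitin ligase, had 3. Of these, chr11:78527241-78529525 held 49, 51 and 48 reads against 155, 62 and 50 and was lower in all P14 libraries by CPM (log2 change -0.31, SE 0.23), and chr11:78525134-78525843 held 33, 17 and 21 against 62, 39 and 18 (-0.40, SE 0.33), both with an adjusted p of 1. The interval of the group with the most reads, at Tnfaip8l1 (chr17:56171399-56174044), held 45, 40 and 39 reads against 209, 98 and 54 (log2 change 0.36, SE 0.24, adjusted p = 0.991). The 5 intervals of Tnfaip8, whose product is an inhibitor of apoptosis, lay between -0.28 and 0.22. The group had 7 intervals above 0 and 13 below, with a median of -0.12.

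Of the ligands, 8 genes had 15 intervals, 14 of them tested, with 0 calls, 11 above 0 and 3 below, and a median of 0.11. The lowest was at Tnfsf4, the OX40 ligand of activated antigen-presenting cells. Its interval, 1230 bp outside the gene (chr1:161393723-161394208), held 31, 12 and 17 reads at P1, against 11, 20 and 9 at P14, or 23.7, 8.08 and 11.8 CPM against 2.25, 7.88 and 5.01. The groups were separated by little, 7.88 against 8.08 CPM, and the log2 change of -1.58 (SE 0.50) did not pass (adjusted p = 0.109). It lay between -2.09 (without P14 replicate 2) and -1.05 (without P1 replicate 1) with 1 library left out. Without both libraries numbered 1 it was -0.58, and with the share of reads in named regions as a covariate -0.10 (SE 0.85). At 486 bp it was the narrowest TNF interval.

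Tnf itself had 3 intervals, at log2 changes of 0.65 (SE 0.43), 0.09 (SE 0.49) and 0.51 (SE 0.49). The last, 1467 bp outside the span, is shared with Lta, the gene of lymphotoxin alpha. The first (chr17:35199986-35200858) held 6, 15 and 7 reads at P1, against 60, 25 and 15 at P14. All 3 overlapped between ages and none passed. Tnfsf11, the RANK ligand of osteoclast formation, had 4 intervals from -0.44 to 0.24. The lowest of these (chr14:78281271-78282274) held 40, 20 and 24 reads against 65, 41 and 27 (adjusted p = 1). Tnfsf14 had the ligand interval with the most reads (chr17:57189912-57191156), 36, 26 and 30 against 169, 38 and 34, with a log2 change of 0.12 (SE 0.31). In it P14 replicate 1 held most of the P14 reads, and without that library the change was -0.37.

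Receptors had no called interval. For the death domain receptors, 12 of 13 intervals were tested, 6 above 0 and 6 below, with a median of 0.00. Tnfrsf1a, the main receptor of soluble TNF, had the widest TNF interval, 3027 bp in the gene body (chr6:125356829-125359855), with 66, 87 and 72 reads at P1, against 234, 139 and 83 at P14. Its levels, 52.9 ± 4.94 and 49.6 ± 4.52 CPM (SD, n = 3), overlapped (log2 change -0.09, SE 0.21, adjusted p = 1), while the other Tnfrsf1a interval was at 0.47 (SE 0.36). Tnfrsf21, death receptor 6, had the most densely captured TNF interval, at 24.9 CPM per kb (chr17:43037311-43038333). It held 8, 40 and 43 reads at P1, against 182, 73 and 43 at P14, and P1 replicate 1 was far below the other P1 libraries (log2 change 0.53, SE 0.34, adjusted p = 0.973). Tnfrsf25, death receptor 3, had 3 intervals above 0, at 0.28, 0.02 and 0.76. The first pair is shared with Plekhg5 and lies outside the Tnfrsf25 span.

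The 3 decoy receptor genes, Tnfrsf11b (osteoprotegerin, which binds the RANK ligand), Tnfrsf22 and Tnfrsf23, had 4 intervals, from -0.30 to 0.56. The Tnfrsf22 interval, 2716 bp outside the gene, held 11, 11 and 12 reads at P1, against 63, 26 and 22 at P14, higher in every P14 library by CPM (log2 change 0.56, SE 0.37, adjusted p = 0.981). The decoy interval with the most reads, at Tnfrsf11b (chr15:54259516-54260341), held 20, 14 and 9 against 65, 22 and 23 (0.19, SE 0.38).

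Of the other receptors, 10 genes had 29 intervals, 25 of them tested, with a median of -0.02 (12 above 0, 13 below). Tnfrsf8, the CD30 receptor of activated lymphocytes, held the lowest value. Its interval chr4:145309310-145309914 had 18, 11 and 11 reads at P1, against 6, 7 and 9 at P14, or 13.7, 7.41 and 7.61 CPM against 1.23, 2.76 and 5.01. Every P14 library was below every P1 library, and the log2 change of -1.81 (SE 0.60) did not pass (adjusted p = 0.15). Without P14 replicate 1 it was -1.31, without both libraries numbered 1 it was -1.0, and with the share of reads in named regions as a covariate -0.24 (SE 0.99). The other 3 Tnfrsf8 intervals lay between -0.07 and 0.31. Tnfrsf1b, the TNF receptor that lacks a death domain, had the highest value, 0.99 (SE 0.61, adjusted p = 0.933), in an interval with 0, 9 and 9 reads at P1, against 47, 15 and 17 at P14. Tnfrsf11a, which encodes RANK, had 5 intervals from -0.32 to 0.13. The one with the most reads (chr1:105826413-105828359) held 31, 37 and 55 reads against 123, 82 and 46 (log2 change -0.07, SE 0.25). Tnfrsf14, the HVEM receptor of LIGHT, had 1, with 16, 28 and 30 reads against 63, 40 and 19 (-0.40, SE 0.31, adjusted p = 1).

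**Figure D4:**
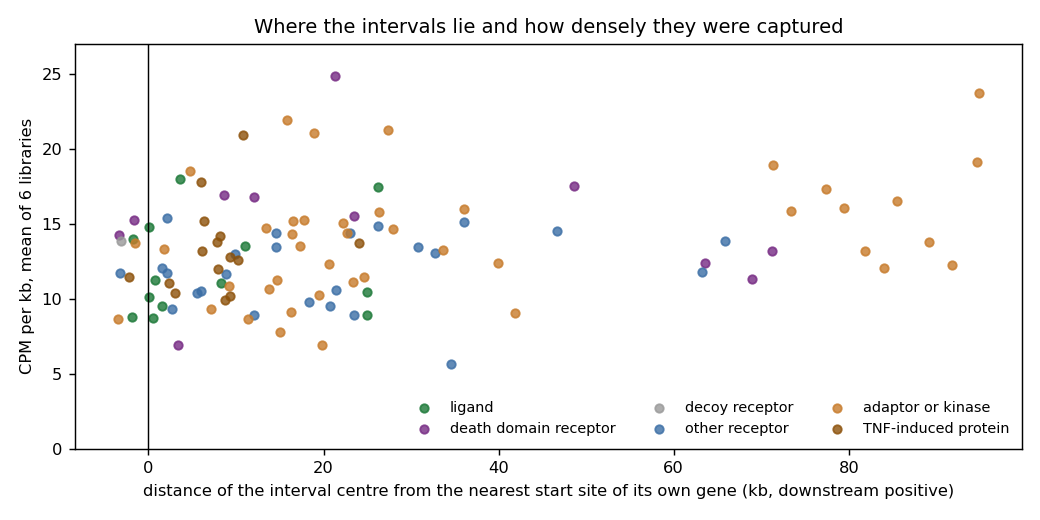
Horizontal axis: distance of the interval centre from the nearest start of its own gene, in kb, positive downstream. Vertical axis: CPM per kb, mean of 6 libraries, for tested intervals whose gene has a start site in the RefSeq table, coloured by role. Intervals reach 94912 bp downstream (Traf3), and the densest, 24.9 CPM per kb, belongs to Tnfrsf21.

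Further genes of the pathway were taken from a list of 62 symbols, of which 48 are named in the table, with 170 tested intervals. Of these, 1 was higher at P14 and 2 were lower (1.76%, background 2.41%), with a median log2 change of 0.03, and 1 interval of the list is the one that Lta shares with Tnf. The interval higher at P14 lies at Relb, the NF-kB subunit of the non-canonical pathway, and held 0, 4 and 3 reads at P1, against 78, 18 and 13 at P14 (log2 change 2.64, SE 0.66, adjusted p = 0.0349). The lower ones lie at Casp8, the initiator caspase activated through FADD, with 19, 33 and 22 reads against 18, 5 and 13 (log2 change -2.09, SE 0.43, adjusted p = 0.0194), and at Itch, a ubiquitin ligase gene, with 27, 12 and 16 against 2, 8 and 6 (log2 change -2.71, SE 0.63, adjusted p = 0.0265). The groups did not overlap in these 3. All 3 calls were lost without P14 replicate 1 and with the share of reads in named regions as a covariate. No named region passed in either fit, so neither can tell an unstable call from a loss of power.

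Ventricle holds several cell types, and in its DNA a change in methylation within a type and a change in the share of that type cannot be told apart. Intervals at marker genes gave 0 higher and 9 lower of 80 tested for cardiomyocytes, a share lower of 11.2% beside 2.21% of all named regions. The 9 lay at Ryr2, which held most of them, and Ttn, so that share rests largely on 1 gene. Without P14 replicate 1 no named region passed, so these calls and the other marker calls below were lost. Leukocyte genes gave 0 and 1 of 69 (Mrc1, 1.45% lower), endothelial genes 0 and 1 of 85 (Erg, 1.18%) and fibroblast genes 0 and 0 of 23. In that order the median log2 changes were -0.01, 0.07, 0.04 and -0.13. These are regions of DNA, so they do not check the labelled tissue by expression. Their part in the values at TNF genes was not tested.

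**Figure D5:**
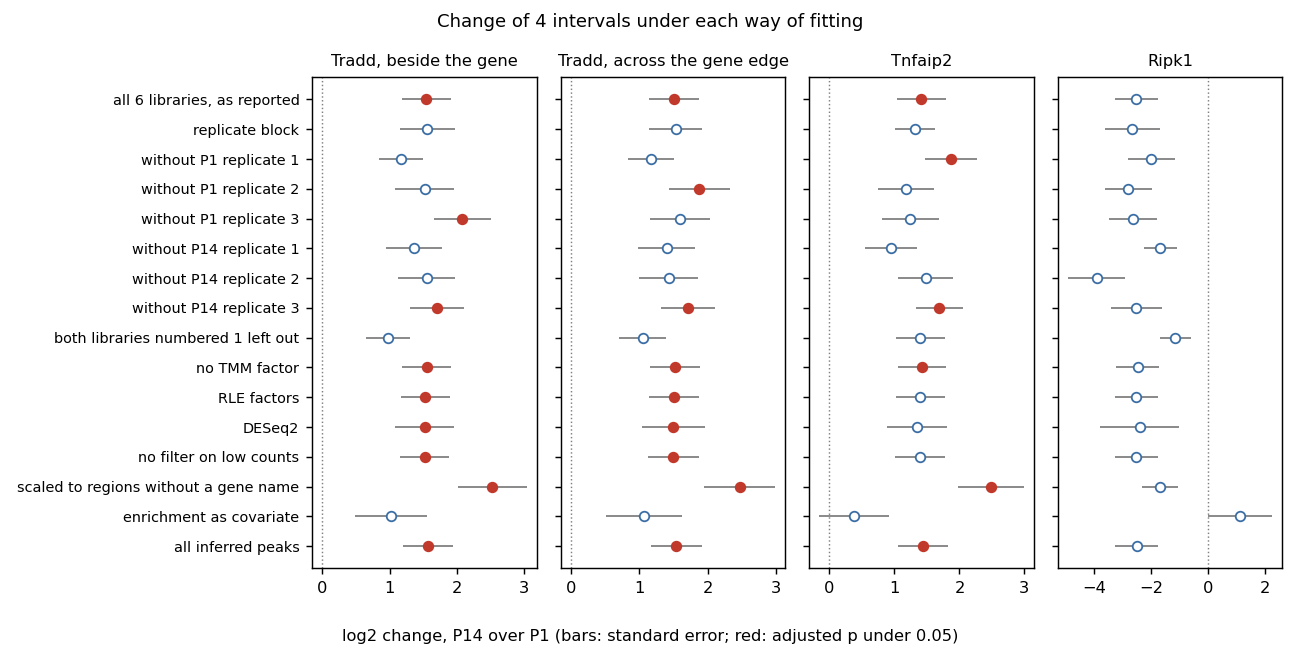
Log2 change from P1 to P14 (horizontal axis, bars are standard errors, scale differing between panels) of the 2 Tradd intervals, Tnfaip2 and Ripk1 under each way of fitting (vertical axis). Red points passed an adjusted p of 0.05. The Tradd and Tnfaip2 changes are above 0 in every row. Ripk1 turns to 1.12 (SE 1.13) with the share of reads in named regions as a covariate, which runs with age.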

How the data were processed

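Per the labels' protocols, sonicated ventricular DNA was enriched with a methyl-CpG binding kit and sequenced for 36 cycles. What the authors deposited are raw read counts for each region. BWA, MACS, bedtools, edgeR 3.2.4 and GRCm38 (mm10) are listed in the submitters' processing notes, without the step that each served. The table has 221524 lines, and 7567 that repeat a region for another gene were collapsed. The lowest mean was 10.0 reads per region. Its starts count from 0, and printed starts are raised by 1.

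Ages were compared with edgeR 4.0.16 (R 4.3.3, limma 3.58.1) by the quasi-likelihood test with TMM factors, filterByExpr and Benjamini-Hochberg adjustment, once over all distinct regions and once over named regions, whose values are printed. SE is the log2 change over the square root of F. DESeq2 1.42.0 and further alternatives are given at the end. The function was tested on simulated data. Members, lists and tests were chosen with earlier results of these data known. Intervals were named if called, among the 8 higher or the 8 lower with the smallest p, with the most reads in their role group, or over their own promoter window. Others with values were added after seeing them. All 6 libraries entered every count unless stated. With 3 libraries per age, the edgeR p-values set the age difference against the spread between these libraries. The estimate of that spread for a region also draws on other regions.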

Additional observations from a re-analysis of the deposited data

How the results depend on the processing

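The median TNF interval held 16 to 62 reads per library, with 3 libraries per age. In the fit over named regions, 3 intervals were called higher at P14. The count was 0 with the replicate block, 0 with both libraries numbered 1 left out, 0 with the share of reads in named regions (enrichment) as a covariate, and 15 when scaled to regions without a gene name. With 1 library left out it lay between 0 and 3. It was 2 with RLE factors, DESeq2 or no filter, and 3 with no TMM factor or over all inferred peaks. In the fit over all regions the count of 0 became 6 with both libraries numbered 1 left out (background 1.19%). With 1 library left out it was 0 to 3, the 3 being without P14 replicate 1 (2 at Tradd and 1 at Traf1, background 0.122%). These backgrounds are over all tested regions, stretches between peaks included, and not over named regions alone. No alternative called an interval lower. Over all named regions, 1480 were called with all libraries and 0 with the replicate block, the covariate or P14 replicate 1 left out. The covariate runs with age, since it was higher in every P14 library than in every P1 library. The labels do not say whether same-numbered libraries were paired. Deviations of same-numbered libraries had correlations of -0.03, -0.04 and 0.04. Those of differently numbered ones lay between -0.04 and 0.07, so the values show no sign of pairing and cannot settle it. Under the replicate block the log2 changes were 1.56 and 1.53 at Tradd and 1.32 at Tnfaip2, with adjusted p of 0.134, 0.129 and 0.117.

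Of 360 values of 24 named intervals under alternatives, 298 kept their direction and side of the threshold, and 33 changed sign, all in intervals that had not passed. Scaled to regions without a gene name, the log2 change became 0.51 at Tnfsf11, 0.67 and 0.57 at Tnfaip1, 0.54 at Tnfrsf14, 0.58 and 0.85 at Traf3, 0.84 at Tnfrsf1a and 0.86 at Tnfrsf11a. With the enrichment covariate it became -0.22 at Traf5, 1.12 at Ripk1, 0.33 and 0.08 at Traf3, -0.82 and -0.33 at Tnfsf14, 0.07 at Tnfrsf11a and -0.3 at Tnfsf8. With both libraries numbered 1 left out it became -0.05 at Traf5, 0.06 at Tnfsf11, 0.0 at Tnfaip1, 0.06 at Traf3, -0.19 at Tnfsf14 and -0.37 at Tnfsf8. With 1 library left out it ranged from -0.21 to 0.03 at Traf3, -0.09 to 0.58 at Tnfrsf11b, -0.37 to 0.37 and -0.16 to 0.25 at Tnfsf14, -0.18 to 0.17 at Tnfrsf11a and -0.17 to 0.36 at Tnfsf8. The cause of these turns was not tested.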

Other observations

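P1 replicate 1 had no read in 5 of the 129 TNF intervals, at Tnfaip8l1, Traf1, Tnfrsf1b (2) and Tnfrsf25, and in 1457 of the 68634 named regions (2.12%). P1 replicate 2 had 1 such TNF interval (Tnfsf12) and 22 named regions (0.0321%), and P1 replicate 3 had 0 and 21. P14 replicate 1, with the most reads in named regions, had 1 (Ripk1) and 69 (0.101%), beside 0 of the TNF intervals in the other P14 libraries.

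The 3 intervals called higher at P14 were 1599, 1727 and 1675 bp wide, while the 3 with the smallest p for a lower value, at Ripk1, Tnfsf4 and Tnfrsf8, were 637, 486 and 605 bp wide, against a median of 909 bp over all TNF intervals. The same intervals differed in captured density at P1, at 5.08 and 4.9 CPM per kb at Tradd and 5.89 at Tnfaip2, against 18.6 at Ripk1, 29.8 at Tnfsf4 and 15.8 at Tnfrsf8. At P14 these were 14.7, 14.0 and 14.9 against 3.64, 10.4 and 4.95. The P1 and P14 densities come from the contrast that chose these intervals, and they are a description.

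RefSeq symbols that match the same rule and for which no region was analysed here are Tnfrsf12a, Tnfrsf26, Tnfrsf4, Tnfsf10, Tnfsf13os, Tnfsf15, Tnfsf18, Tnfsf9 and Tnfsfm13.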
